A study of Mus musculus with 19 samples.

Results

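Palmitic acid and palmitoleic acid are fatty acids of 16 carbons that differ by 1 double bond, and this comparison sets the adipocytes given palmitic acid (PA, 16 carbons and 0 double bonds) against those given palmitoleic acid (titled PMO on the arrays, PMA in the treatment protocol). It rests on 8 of the 19 arrays of the study, the 4 titled PA-treated and the 4 titled PMO-treated, and was read across all 18820 genes that had exactly 1 symbol in the array annotation, each through its brightest probe set. The cells were 3T3-L1, a mouse fibroblast line that turns into fat cells under dexamethasone, IBMX and insulin. From day 7 they were kept without serum, and from day 8 they received an acid at 250 µM for 48 hours in medium with insulin and 2% bovine serum albumin, with the ethanol in which the acids had been dissolved. The control cells (4 arrays) had albumin and ethanol alone, and the arms with stearic acid (SA, 18 carbons and 0 double bonds, 4 arrays) and oleic acid (OA, 18 carbons and 1 double bond, 3 arrays) had the same dose and time. All groups therefore share the insulin, the albumin, the ethanol and the absence of serum. The replicates are called biological in the labels, which do not say whether they came from separate passages or days, so a p-value measures the spread between these cultures of 1 cell line at 1 dose and 1 time.

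Palmitic acid is the main product of fatty acid synthesis, and palmitoleic acid is made from it by the stearoyl-CoA desaturases, which put a double bond into the middle of the chain. Fat cells take up both, join them to coenzyme A and store them as triglyceride or burn them in mitochondria. In cultured cells saturated acids such as palmitic acid are known for inflammatory signalling, for ceramide synthesis and for stress of the endoplasmic reticulum, while palmitoleic acid is known as a fatty acid that adipose tissue releases and that has been described as acting like a hormone on other tissues.

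Values are log2 expression, so that a difference of 1 is a 2-fold change, and each difference is PA minus PMO from a linear model (limma) fitted to all 19 arrays, given with its standard error. A gene was called when its Benjamini-Hochberg adjusted p over the 18820 genes was under 0.05. The 19 arrays correlated with one another at 0.988 to 0.997. PA 2 and PA 4 stood apart on the first principal component of the 8 arrays, which held 41.6% of their variance, and PMO 1 and PMO 4 on the next, which held 22.1%. The spread around the group mean was 0.138 for PA and 0.111 for PMO against 0.0951 to 0.0978 in the other 3 groups. The cells carried the markers their label asks for: the mean of 11 adipocyte markers per array was 11.3 to 11.4 with PA and 11.4 with PMO, with Lpl the brightest at 12.4. Markers of macrophages, T cells, endothelium and liver lay near the bottom of the scale, with list medians of 4.75, 5.17, 4.66 and 4.48, and 0 of the measured markers of these 4 types were called by limma. The 5 skeletal muscle markers had a median of 5.78, with Des the brightest at 8.82. The 9 preadipocyte and fibroblast markers were bright too, with a median of 10.8 beside 11.7 for the adipocyte markers.

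Of the 18820 genes, 181 (0.962%) differed between the 2 acids. The level was higher with palmitic acid for 20 of them (0.106% of genes) and higher with palmitoleic acid for 161 (0.855%), and 3325 genes (17.7%) had an unadjusted p under 0.05. Of all genes, 3.13% were higher and 14.5% lower with palmitic acid at that unadjusted level. Most differences were small. The median size over the 181 genes was 0.30, 8 exceeded 1.5-fold and 2 exceeded 2-fold, the chemokine gene Ccl5 upwards and the transcript BC023105 downwards. The 4 PA arrays and the 4 PMO arrays did not overlap for 176 of the 181, against 8.01% of all genes. The 181 had been chosen on this same difference in the same arrays, so their separation is no further support. Both the count and its balance moved with the arrays and with the scaling. It was 22 (8 higher, 14 lower) when only the 8 arrays compared entered the fit, 430 without the dimmest genes and 489 with a trended robust spread. It was 447 without PA 1, 638 without PA 3, 49 without PA 4, 77 without PMO 1, 89 without PMO 3 and 74 without PMO 4. After cyclic loess normalisation between the arrays it was 114, with 55 higher and 59 lower with palmitic acid, and 75 of these were among the 181. Without PMO 1 and PMO 4 together it was 30 (11 higher, 19 lower), and without PA 2 and PA 4 together 54 (15 higher, 39 lower). None of the 181 changed sign under the 31 alternatives, but for the 176 without overlap leaving out arrays could not have turned it. Of the 181, 14 were called under every alternative that could test them. Higher with palmitic acid were Ccl5, Egr1, Wfdc21, Znfx1 and Hp. Higher with palmitoleic acid were BC023105, Agtr2, Fmod, Ogn, P4ha3, Plagl1, Pi15, Sema3c and Timp2. For other called genes, the settings named below as losing a call are not all that did. Only 22 of the 181 stayed called when the 8 arrays compared were fitted alone.

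**Figure D1:**
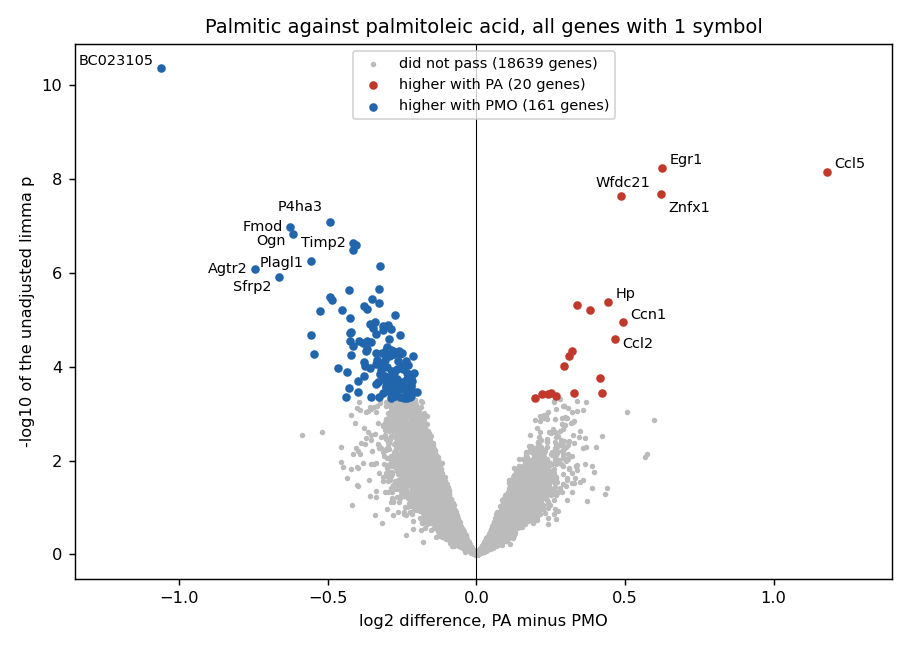
Each point is 1 of the 18820 genes, with the log2 difference PA minus PMO on the x axis and the -log10 of the unadjusted limma p on the y axis. Red and blue points are the 20 genes called higher with palmitic acid and the 161 called higher with palmitoleic acid, and Ccl5 and BC023105 lie farthest out on their sides.

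The 20 genes higher with palmitic acid included 3 chemokines and an acute phase protein. Ccl5, a chemokine that draws T cells and monocytes, had levels of 7.21, 6.40, 6.65 and 6.56 on the 4 PA arrays and of 5.70, 5.53, 5.45 and 5.43 on the 4 PMO arrays. All PA arrays lay above all PMO arrays, and the 4 control arrays (6.11, 5.80, 5.78 and 6.04) lay between them without touching either. The difference was 1.18 ± 0.13 (SE), or 2.26-fold, with an adjusted p of 4.39e-05 in limma, the largest positive difference of any gene. Palmitic acid was above control by 0.77 (95% interval 0.51 to 1.04), and palmitoleic acid was below the same 4 control arrays with a difference of -0.41 (-0.67 to -0.14).

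Ccl2 and Ccl7, chemokines that draw monocytes, were also higher with palmitic acid, with smaller differences. Ccl2 had levels of 7.17, 7.18, 7.18 and 7.08 with PA and of 6.61, 6.69, 6.81 and 6.62 with PMO, a difference of 0.47 ± 0.09 (limma adjusted p 0.011). Ccl7 had levels of 8.21, 8.18, 8.19 and 8.15 with PA and of 7.85, 7.76, 7.84 and 7.75 with PMO, a difference of 0.38 ± 0.06 (limma adjusted p 0.00439). In neither gene did the groups overlap. The control arrays for Ccl7 spanned 8.14 to 8.40, around the level with palmitic acid, so here the lower group was the one given palmitoleic acid, at -0.47 from control (-0.61 to -0.34). Without PMO 1 and PMO 4 the adjusted p was 0.203 for Ccl2 and 0.0777 for Ccl7 in limma.

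Hp and Wfdc21, which encode secreted proteins, were higher with palmitic acid as well. Hp, which encodes the haemoglobin scavenger haptoglobin, had levels of 10.25, 9.94, 10.11 and 10.10 with PA and of 9.66, 9.59, 9.67 and 9.70 with PMO, 0.44 ± 0.07 apart (limma adjusted p 0.00369). Wfdc21, a small secreted protein of the whey acidic protein family, had levels of 7.36, 7.36, 7.22 and 7.45 with PA and of 6.90, 6.80, 6.90 and 6.83 with PMO. Its groups did not overlap, with a difference of 0.49 ± 0.06 (limma adjusted p 8.58e-05). Control levels of Wfdc21, at 7.12 to 7.28, reached into the PA arrays but not into the PMO arrays.

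Of the 34 measured genes in a list of inflammatory cytokines, chemokines and acute phase proteins, 4 (Ccl5, Ccl2, Ccl7 and Hp) were higher and 1, Cxcl12, was lower with palmitic acid. Cxcl12, the chemokine of stromal cells, differed by -0.26 ± 0.05 (limma adjusted p 0.00936), which became 0.0517 after cyclic loess. The share called was 14.7%, against 0.962% of all genes, and 22 of the 34 differences were above 0. The list's median was 0.02, against -0.03 for all genes. At an unadjusted p under 0.05, 7 members were higher and 4 lower. Without PMO 1 and PMO 4 the count was 2 higher and 0 lower. Il6 was near the bottom of the scale at 4.22 with PA and 4.19 with PMO, and Lcn2, the acute phase protein lipocalin 2, differed by -0.04 (-0.23 to 0.14). Of 9 macrophage markers 0 were called by limma, with 1 higher and 2 lower at an unadjusted p under 0.05. Their mean per array was 4.67 to 4.81 with PA and 4.71 to 4.86 with PMO, and Cd68, the brightest, differed by -0.39 (-0.59 to -0.19, limma adjusted p 0.0519). Their part in the chemokine differences was not tested. Among 33 genes of the Toll-like receptor and NF-kB pathway 0 were called by limma. At an unadjusted p under 0.05, 8 were lower and 0 higher, where 14.5% of all genes were lower and 3.13% higher. In this list 1 and 2 were called lower without PA 1 and without PA 3. Tlr4 itself differed by -0.11 (-0.33 to 0.10).

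**Figure D2:**
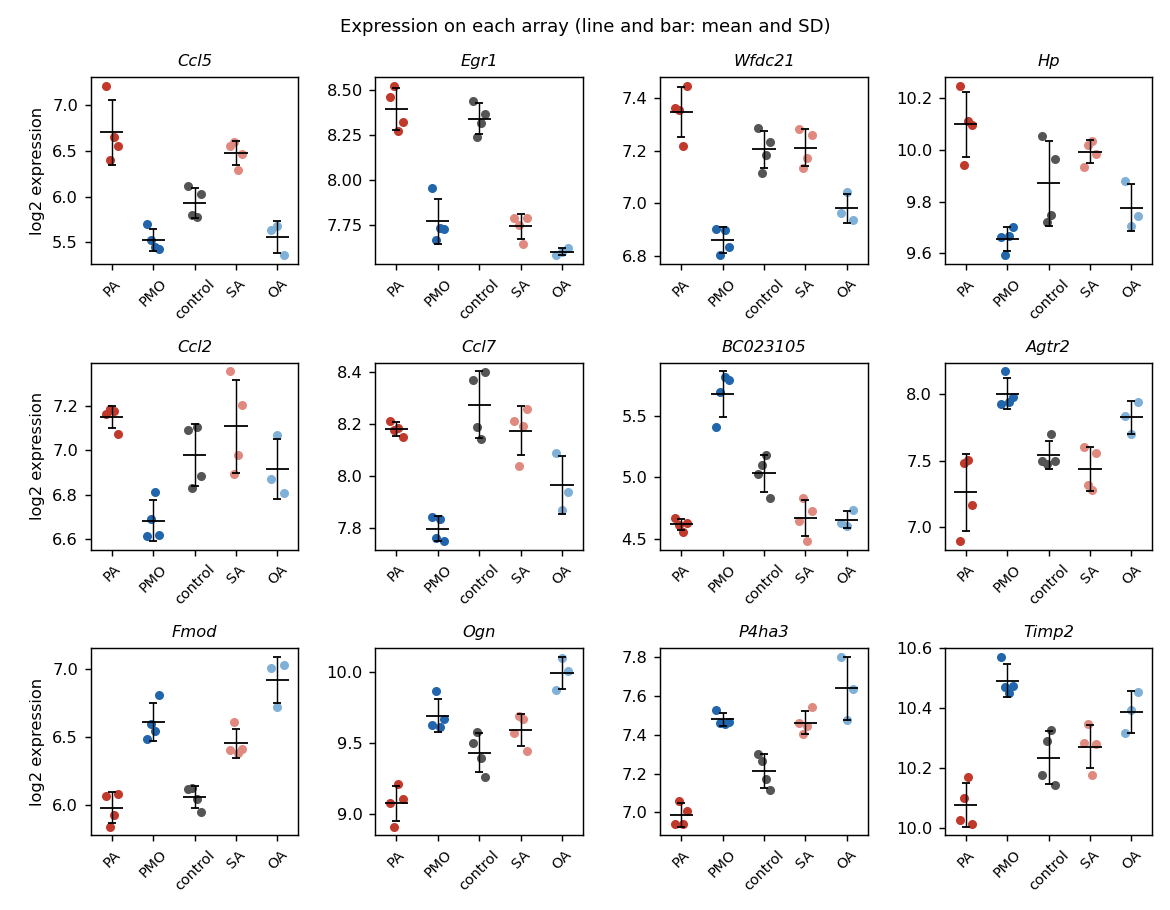
Log2 expression of 12 genes on each array, for PA, PMO, control, SA and OA, with the mean as a line and the SD as a bar (4 arrays each, 3 for OA). Ccl5 with PA lies above every control and PMO array, Egr1 is at 8.24 to 8.53 in control and PA and below 8 in the other groups, and BC023105 is above 5.4 with PMO alone.

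Immediate early genes, the transcription factors and secreted proteins that cells switch on within minutes of a stimulus, gave 3 calls among 25 measured genes, all higher with palmitic acid. That was 12% of the list, where 0.106% of all genes were called higher. Egr1, a zinc finger transcription factor induced through ERK signalling, had levels of 8.46, 8.53, 8.27 and 8.33 with PA and of 7.95, 7.67, 7.73 and 7.73 with PMO. The PA arrays lay within the range of the controls or just above it (8.44, 8.24, 8.32 and 8.37), and all PMO arrays lay below both. The difference was 0.63 ± 0.07 (limma adjusted p 4.39e-05), with PA at 0.05 from control (-0.09 to 0.19) and PMO at -0.57 (-0.71 to -0.43). Ccn1, a matricellular protein that binds integrins, differed by 0.49 ± 0.09 (limma adjusted p 0.0067), its PA arrays at 8.74 to 9.06 and its PMO arrays at 8.31 to 8.50. Junb, a subunit of the AP-1 factor, differed by 0.30 ± 0.06 (limma adjusted p 0.022). The call of Junb was lost without PA 4, PMO 2 or PMO 4, which left 2 calls in the list. Fos, its usual partner, was on the same side at 0.34 (0.16 to 0.52) with a limma adjusted p of 0.059. The list's median was 0.05. Of 17 ERK feedback genes 1 was called, though 4 were higher and 2 lower with palmitic acid at an unadjusted p under 0.05. Dusp6, an ERK phosphatase, was at 8.35 with PA and 8.14 with PMO and did not pass (limma adjusted p 0.0973). Spry1, an inhibitor of receptor tyrosine kinase signalling, was lower with palmitic acid at -0.22 ± 0.05 (limma adjusted p 0.0422). The call of Spry1 was lost without any 1 of PA 1, PA 4 or the 4 PMO arrays, or of 8 arrays of the other groups, and after cyclic loess.

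Among 35 listed interferon-stimulated genes, 2 (5.71%) were called higher with palmitic acid and 0 lower in limma, beside 0.106% and 0.855% of all genes. At an unadjusted p under 0.05, 6 were higher and 5 lower. The interferon-induced genes Ifi30 and Ly6e, outside the list, were called lower with palmitic acid. They differed by -0.35 ± 0.06 (limma adjusted p 0.00356) and -0.22 ± 0.05 (0.0473). Znfx1, a helicase of antiviral defence, had levels of 9.22, 9.18, 9.38 and 9.31 with PA and of 8.68, 8.62, 8.69 and 8.60 with PMO, a difference of 0.62 ± 0.07 (limma adjusted p 8.58e-05). The control arrays, at 9.20 to 9.23, lay with the PA arrays. The gene has another, dimmer probe set, which went the opposite way at -0.16 ± 0.04 with an adjusted p of 0.126, so the direction holds for 1 of its 2 probe sets. Ifi27l2a, a small interferon-induced membrane protein, differed by 0.42 ± 0.10 (limma adjusted p 0.0426), and this call was lost without PA 2, PA 4, any of the 4 PMO arrays or any of 6 arrays of the other groups. Ifit1, a sensor of viral RNA, had a difference of 0.57 with a wide interval (0.16 to 0.98) and did not pass (limma adjusted p 0.14).

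The other 10 genes higher with palmitic acid included Sec61g and Tes. Sec61g, a subunit of the channel that carries proteins into the endoplasmic reticulum, had levels of 10.11 to 10.35 with PA and 9.85 to 9.96 with PMO, and differed by 0.32 ± 0.06 (limma adjusted p 0.0149). Its 3 dimmer probe sets gave differences of 0.25 to 0.27 and did not pass. The call of Sec61g was lost without PA 4 or PMO 1. Tes, a focal adhesion protein, had levels of 5.98, 5.85, 5.88 and 5.92 with PA and of 5.58, 5.54, 5.56 and 5.59 with PMO, with a difference of 0.34 ± 0.06 (limma adjusted p 0.00389).

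Among the genes higher with palmitoleic acid were several of the extracellular matrix. Fmod and Ogn encode fibromodulin and osteoglycin, small leucine-rich proteoglycans that bind collagen fibrils. Fmod had levels of 6.07, 5.84, 5.93 and 6.08 with PA and of 6.49, 6.59, 6.54 and 6.80 with PMO. The PMO arrays lay above all PA and all control arrays (5.95 to 6.12), and PA lay at the control level. The difference was -0.63 ± 0.08 (limma adjusted p 0.000289), or 1.55-fold higher with palmitoleic acid. Ogn had levels of 9.08, 8.91, 9.21 and 9.11 with PA, of 9.62, 9.86, 9.61 and 9.67 with PMO and of 9.26 to 9.58 in the controls, which lay between the 2 acids and touched neither. It differed by -0.62 ± 0.08 (limma adjusted p 0.000353).

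The start regions of Fmod and Ogn are shown because both genes are proteoglycans of 1 family that differed by nearly the same amount. RefSeq's promoter table (GRCm38.p6), which matched 141 of the 181 genes called, holds Fmod at chr1:134037154-134037273 and Ogn at chr13:49607915-49608034, both on the plus strand. The lines give the 100 bases before and the 20 bases from the start of each gene, 5′ to 3′, with the longest run of bases that the 2 windows share in capitals.
Fmod: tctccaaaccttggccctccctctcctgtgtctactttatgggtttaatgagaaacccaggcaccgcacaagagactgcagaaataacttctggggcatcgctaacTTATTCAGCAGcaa
Ogn: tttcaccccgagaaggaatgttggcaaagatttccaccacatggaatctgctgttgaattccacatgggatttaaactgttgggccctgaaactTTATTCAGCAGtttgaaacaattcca
The shared run TTATTCAGCAG has 11 bases. It covers bases 7 to 17 of the Fmod transcript, counted from 1 at the start, and runs from base -6 to base 5 at Ogn. On either strand it occurred in 4 of the 32851 windows of the table (0.0122%), these 2 among them. Neither window held the TATA letters TATAAA (6.1% of windows) or the AP-1 letters TGANTCA (3.24%), on either strand. The run was picked as the longest match after these genes had been chosen, and is a description of the 2 sequences.

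P4ha3, a subunit of the prolyl hydroxylase that stabilises collagen, had levels of 6.94, 7.06, 6.94 and 7.01 with PA and of 7.53, 7.46, 7.46 and 7.47 with PMO. The groups were tight and far apart, at -0.49 ± 0.06 (limma adjusted p 0.000259), and the controls (7.11 to 7.30) lay between them. Timp2, an inhibitor of matrix metalloproteinases that falls outside the naming rule and was chosen after its values were seen, had levels of 10.03, 10.10, 10.17 and 10.01 with PA and of 10.57, 10.47, 10.45 and 10.48 with PMO, a difference of -0.41 ± 0.06 (limma adjusted p 0.000575). Reck, a membrane-bound inhibitor of the same proteases, differed by -0.30 ± 0.05 (limma adjusted p 0.00715) and was also chosen after its values were seen. So were Antxr1 and Antxr2, receptors that bind collagens and laminin, which differed by -0.43 ± 0.07 (limma adjusted p 0.00568) and -0.29 ± 0.05 (0.00808), and Pi15, a secreted peptidase inhibitor, at -0.40 ± 0.05 (0.000485). The PA and PMO arrays did not overlap for any of these genes. Without PMO 1 and PMO 4 the calls of Reck, Antxr1 and Antxr2 were lost. These genes do not stand for every member of their class. The extracellular matrix list held 10 matrix enzymes and protease inhibitors, of which 0 were called by limma. They were Lox, Loxl1, Loxl2, Plod2, P4ha1, Mmp2, Mmp3, Mmp14, Timp1 and Timp3. Their differences ran from -0.16 to 0.33, with 1 higher and 2 lower at an unadjusted p under 0.05. Outside that list the protease genes Adam19 and Plat were called lower with palmitic acid, as was Fap, described below. Adam19 differed by -0.31 ± 0.06 (limma adjusted p 0.0181) and Plat by -0.36 ± 0.09 (0.0476). Called genes outside the list were not counted by class.

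In the whole list of extracellular matrix genes, 5 of 44 were lower with palmitic acid (Fmod, Ogn, Dcn, Postn and Thbs2) and 1 was higher (Ccn1, which the immediate early list also holds). The share called was 13.6%, against 0.962% of all genes, and the median was -0.08, against -0.03 for all genes. Dcn, the proteoglycan decorin, was among the most abundant messages at 11.24 to 11.45 with PA and 11.51 to 11.63 with PMO, with a difference of -0.28 ± 0.06 (limma adjusted p 0.0149). Postn and Thbs2, matricellular proteins, differed by -0.24 ± 0.05 (0.0331) and -0.22 ± 0.05 (0.0306). This count was less firm than the 2 proteoglycans that lead it: it was 2 lower without PA 4 or without PMO 1, 3 lower without PA 2 or without PMO 4, and 3 lower with 2 higher after cyclic loess.

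Of 20 preadipocyte and fibroblast markers, 4 were lower with palmitic acid and 0 higher: Fap, a surface protease of activated fibroblasts, at -0.37 ± 0.07 (limma adjusted p 0.0149), Dcn, the matrix protein gene Dpt at -0.25 ± 0.05 (0.0218), and Postn. Fap was near the bottom of the scale, at 4.51 to 4.62 with PA and 4.90 to 4.99 with PMO. The share called was 20%, against 0.962% of all genes. The list's median of -0.15 was the lowest of the 37 lists in the reported setting, and 8 of its members had PA arrays wholly below the PMO arrays, against 7.09% of all genes. These calls depended on single arrays. The count was 0 without PA 4 and 0 without PMO 1, 2 without PMO 2, and 2 after cyclic loess, where the median was -0.09 beside 0.00 for all genes. A subset of 9 defining markers, all of them among the 20 and led by Vim, had a mean per array of 9.93 to 10.09 with PA and 10.07 to 10.18 with PMO. Their median difference was -0.12, and 0 of the 9 were called (smallest limma adjusted p 0.0549). Whether the share of undifferentiated cells differed between the cultures was not tested; in RNA from whole wells, fewer cells of a type and less RNA per cell cannot be told apart.

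Of 22 contractile genes, 3 were lower with palmitic acid, the actin-binding calponins Cnn2 (-0.30 ± 0.07, limma adjusted p 0.0366) and Cnn3 (-0.27 ± 0.05, 0.0149) and tropomyosin Tpm1 (-0.25 ± 0.05, 0.0149). The share called was 13.6%, against 0.962% of all genes, and the list's median was -0.07. The count was 0 without PA 4, 0 without PMO 1 and 1 after cyclic loess, and it was 2 without PA 1, PA 2, PMO 2, PMO 3 or PMO 4. Myl9, a myosin light chain, had a difference of -0.39 (-0.60 to -0.18) with an adjusted p of 0.0578. Mitosis genes had a median of -0.13 over 21 members, with 0 called by limma. At an unadjusted p under 0.05, where 14.5% of all genes were lower, 4 members were lower and 0 higher. Without PA 1 and without PA 3, 2 and 1 of them were called lower. Top2a, a DNA topoisomerase of dividing cells, was at 6.49 with PA and 6.78 with PMO (limma adjusted p 0.155).

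**Figure D3:**
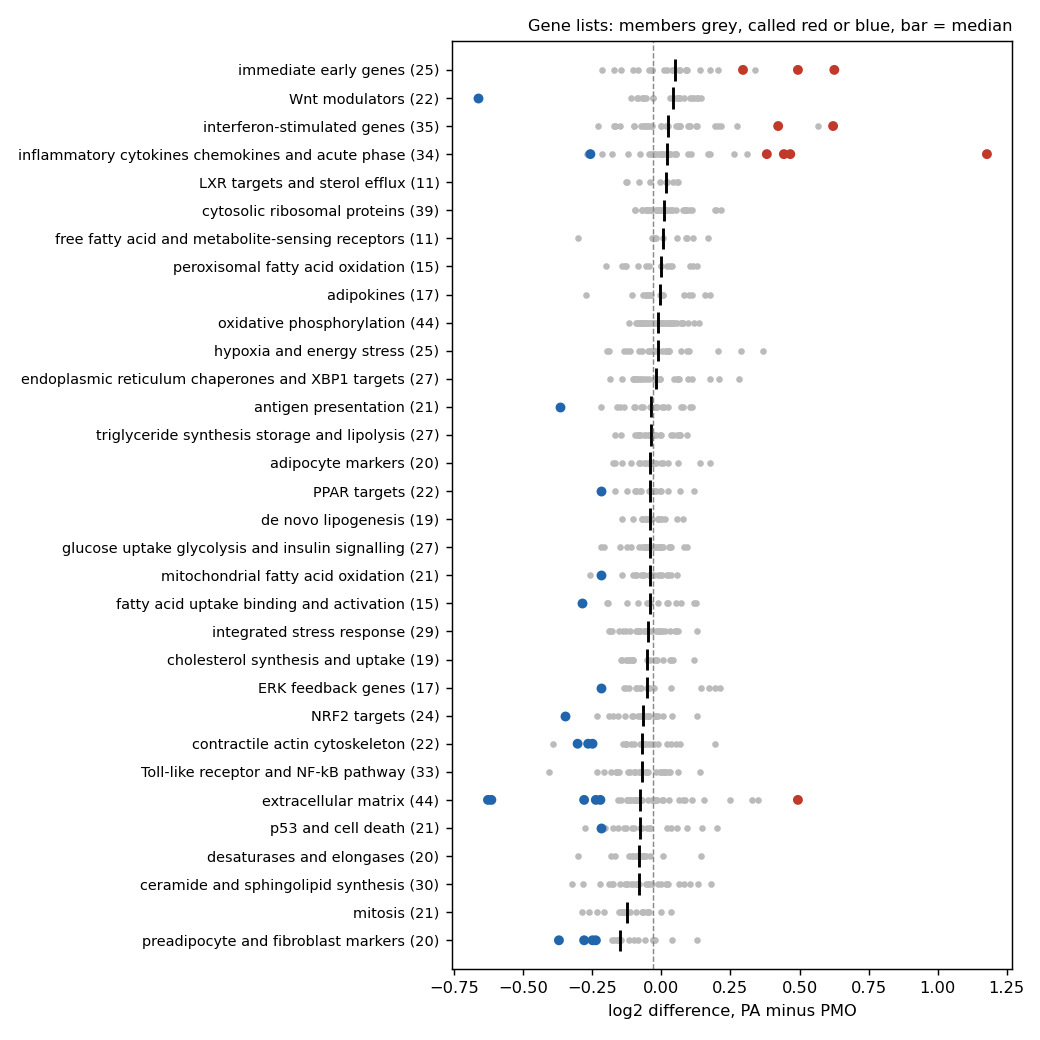
Log2 differences PA minus PMO of the members of each list with at least 11 measured genes (number in brackets), ordered by median. Grey points did not pass, red and blue points were called higher and lower with palmitic acid, bars are list medians, and the dashed line is the median of all genes at -0.03. The inflammatory list has 4 red points and the extracellular matrix list 5 blue ones.

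Agtr2, the type 2 receptor for angiotensin II, had levels of 6.89, 7.48, 7.51 and 7.17 with PA and of 7.93, 8.17, 7.94 and 7.98 with PMO. The PA arrays were widely spread, the PMO arrays were not, and the groups did not overlap. The difference was -0.74 ± 0.11 (limma adjusted p 0.00115), with PMO above control by 0.46 (0.24 to 0.69) and PA below it at -0.28 (-0.51 to -0.06). Sfrp2, a secreted modulator of Wnt signalling, had levels of 7.50, 7.87, 7.77 and 7.44 with PA and of 8.47, 8.27, 8.33 and 8.17 with PMO, a difference of -0.66 ± 0.10 (limma adjusted p 0.00154). It was the 1 gene called among 22 Wnt modulators, whose median of 0.04 lay on the other side of 0. Prokr1, a receptor for the prokineticins, differed by -0.55 ± 0.11 (limma adjusted p 0.0149), and its call was lost without PA 4 or PMO 1.

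Plagl1, an imprinted zinc finger factor that restrains growth, had levels of 5.53, 5.74, 5.68 and 5.57 with PA and of 6.21, 6.26, 6.18 and 6.08 with PMO, a difference of -0.56 ± 0.08 (limma adjusted p 0.000894). The paralogous zinc finger factors Osr2 and Osr1 of mesenchymal tissue differed alike, Osr2 by -0.56 ± 0.10 (limma adjusted p 0.00945) and Osr1 by -0.37 ± 0.07 (0.0113). The call of Osr2 was lost without PA 4 and that of Osr1 without PMO 1 and after cyclic loess. The transporter genes Abca8a and Abca9, paralogues of 1 subfamily of lipid transporters, differed by -0.53 ± 0.09 (limma adjusted p 0.00444) and -0.42 ± 0.08 (0.00883). Sema3c, a secreted guidance protein that fat tissue also releases, had levels of 8.60, 8.83, 8.80 and 8.74 with PA and of 9.13, 9.20, 9.12 and 9.19 with PMO, a difference of -0.41 ± 0.06 (limma adjusted p 0.000485). Its relative Sema3a differed by -0.28 ± 0.06 (limma adjusted p 0.0149), a call that was lost without PA 4 or PMO 3 and after cyclic loess. Cpe, a peptidase that trims prohormones, differed by -0.38 ± 0.06 (limma adjusted p 0.00392). Osr1, Abca9, Sema3c, Sema3a and Cpe were chosen after their values were seen.

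BC023105, which RefSeq lists as a pseudogene, had the largest negative difference of all. Its levels were 4.66, 4.61, 4.56 and 4.63 with PA and 5.41, 5.69, 5.81 and 5.79 with PMO, -1.06 ± 0.09 apart (limma adjusted p 8.35e-07). The controls lay between them at 4.83 to 5.18, so PMO was above control by 0.64 (0.46 to 0.82) and PA below it at -0.42 (-0.60 to -0.24). By its mean level the gene falls in the part of the scale that the alternative filter on low values removes. A pseudogene can share sequence with relatives elsewhere in the genome, and whether its probes read 1 transcript was not tested.

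The lists of lipid storage and synthesis genes held no calls in the reported setting. No member was called by limma among 19 genes of de novo lipogenesis, 20 desaturases and elongases, 19 of cholesterol synthesis, 15 of peroxisomal oxidation, 27 of triglyceride storage, 20 adipocyte markers and 17 adipokines. At an unadjusted p under 0.05 these lists held 0, 4, 2, 2, 1, 1 and 1 members lower and 0, 0, 0, 0, 0, 1 and 1 higher with palmitic acid, in that order. The desaturases and elongases held 1 call without PA 1 or without PA 3, and the adipokines 1 without PA 3, all lower with palmitic acid. Both lists also held 1 with a trended robust spread, and the desaturases and elongases 1 without the dimmest genes. Hacd4, a relative of the listed Hacd1, Hacd2 and Hacd3, lay outside the list. It was called lower with palmitic acid, at -0.40 ± 0.07 (limma adjusted p 0.0113). Scd1, the desaturase that makes palmitoleic acid, was at 12.87 with PA and 12.91 with PMO, and its interval of -0.14 to 0.06 leaves room for only a small difference. The lipid droplet coat gene Plin2 had an interval of -0.13 to 0.06, the fatty acid binding protein gene Fabp4 one of -0.09 to 0.13, the lipase gene Lpl one of -0.15 to 0.06 and the adipokine gene Adipoq one of -0.10 to 0.11. Angptl4 and Pdk4, which PPAR factors induce when fatty acids reach the nucleus, differed by 0.00 (-0.11 to 0.11) and -0.01 (-0.18 to 0.17). Lep, which encodes leptin, had a difference of 0.18 (0.05 to 0.31) and did not pass (limma adjusted p 0.153).

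The lists of uptake and of mitochondrial oxidation each held 1 call. Slc27a1, a fatty acid transport protein that also has acyl-CoA synthetase activity, had levels of 9.00, 9.12, 9.10 and 9.01 with PA and of 9.33, 9.29, 9.38 and 9.37 with PMO, a difference of -0.29 ± 0.06 (limma adjusted p 0.0153). It was the 1 gene called of 15 in uptake, binding and activation. Cpt1a, an enzyme of the outer mitochondrial membrane that joins long acyl chains to carnitine, had levels of 8.97 to 9.09 with PA and 9.21 to 9.31 with PMO. Its difference was -0.22 ± 0.05 (limma adjusted p 0.0422). It was the 1 gene called of 21 in mitochondrial oxidation and of 22 PPAR targets. Both calls were lost without PA 4, PMO 3 or PMO 4 and after cyclic loess, and that of Cpt1a also without PA 2 or PMO 1 and without any 1 of 5 arrays of the other groups. Cd36, the main fatty acid transporter of the cell surface, had a difference of -0.12 (-0.24 to -0.01, limma adjusted p 0.25).

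The lists of stress programmes for which palmitic acid is known gave 0 calls between the 2 acids in limma at this dose. These counts do not compare either acid with control. Sec61g, described above, and Fkbp11, also of the endoplasmic reticulum, lay outside the lists and were called higher with palmitic acid. Fkbp11 differed by 0.24 ± 0.06 (limma adjusted p 0.0436). Its call did not hold under every alternative, and the replicate block was among the settings that lost it. Among 29 genes of the integrated stress response, 0 were higher and 6 lower at an unadjusted p under 0.05, where 14.5% of all genes were lower, and Trib3, its late target, differed by -0.06 (-0.20 to 0.07). Among 27 endoplasmic reticulum chaperones and XBP1 targets, 4 were higher and 2 lower at that level, and 1 was called higher without PA 1 or without PA 3 and after cyclic loess. Hspa5, the chief chaperone, differed by -0.02 (-0.11 to 0.07), and Sec61b, another channel subunit, came closest at 0.28 (0.14 to 0.42) with a limma adjusted p of 0.0502. Of 30 genes of ceramide and sphingolipid synthesis 0 were called, with 1 higher and 9 lower at an unadjusted p under 0.05, and 3 and 2 were called lower without PA 1 and without PA 3. Ugcg, which turns ceramide into glucosylceramide, was at 7.42 with PA and 7.74 with PMO (limma adjusted p 0.0519), and Sptlc2, of the first enzyme of the pathway, differed by -0.05 (-0.17 to 0.07). In all, 23 of the 37 lists held 0 called genes out of 437. Their members at an unadjusted p under 0.05 numbered 15 higher (3.43%) and 55 lower (12.6%) with palmitic acid, beside 3.13% and 14.5% of all genes, and 6 of the 437 were called after cyclic loess.

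Single members were called in 4 more lists, all lower with palmitic acid. Cd74, the invariant chain of class II antigen presentation, differed by -0.37 ± 0.06 (limma adjusted p 0.00439), with PA arrays at 5.40 to 5.71 and PMO arrays at 5.86 to 5.96, 1 of 21 genes of antigen presentation. Abcc4, an efflux pump, differed by -0.35 ± 0.06 (limma adjusted p 0.00779), 1 of 24 NRF2 targets, a count that was 2 without PA 1 or PA 3. Casp8, the initiator caspase of death receptors, differed by -0.22 ± 0.05 (limma adjusted p 0.0357), 1 of 21 genes of p53 and cell death. That count was 0 without PA 2, PA 4 or any of the 4 PMO arrays and after cyclic loess, 3 without PA 1 and 2 without PA 3. The fourth was Spry1, described above with the ERK feedback genes.

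The arms at 18 carbons repeat the same step, from 0 double bonds to 1, and share no array with the 16-carbon pair. Stearic against oleic acid gave 6 called genes (0.0319%), all higher with stearic acid, and 451 (2.4%) at an unadjusted p under 0.05. Ccl5 was the 1 gene called in both pairs. Its levels were 6.55, 6.60, 6.29 and 6.46 with SA and 5.64, 5.68 and 5.36 with OA, a difference of 0.92 (0.63 to 1.21, limma adjusted p 0.0116), beside 1.18 at 16 carbons. The other 5 were Slc7a11, the cystine transporter (0.64 at 18 carbons and 0.13 at 16), the growth factor Ereg (0.53 and 0.20), the architectural factor Hmga2 (0.52 and 0.32), the cyclooxygenase Ptgs2 (0.43 and 0.17) and the aminotransferase Bcat1 (0.39 and 0.10). The count of 6 was 1 without SA 1, 2 without SA 4, 0 without OA 3, and 3 without control 3, control 4 or PMO 3.

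The genes called at 16 carbons mostly had a difference of the same sign at 18. All 20 genes higher with palmitic acid had a positive difference SA minus OA, where 47.7% of all genes had one, and their median was 0.20. Of the 161 higher with palmitoleic acid, 146 (90.7%) had a negative difference, where 52.3% of all genes had one, with a median of -0.08. The size was smaller at 18 carbons for all 181, which had been chosen on their difference at 16. Across all 18820 genes the 2 differences correlated at r = 0.307, a description over genes that share arrays and probe chemistry and are not independent.

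The test of the difference between the 2 pairs called 1 gene in limma (0.00531%), with 986 (5.24%) at an unadjusted p under 0.05. It was BC023105, at 4.64, 4.83, 4.48 and 4.72 with SA and 4.62, 4.60 and 4.74 with OA, so that its difference of 0.01 at 18 carbons stood against -1.06 at 16. The difference of differences was -1.07 ± 0.13 (limma adjusted p 0.000611). Egr1 came next. Its levels were 7.79, 7.75, 7.64 and 7.79 with SA and 7.58, 7.60 and 7.62 with OA, all below the 4 controls, and its difference was 0.14 (-0.01 to 0.29) at 18 carbons against 0.63 at 16. The difference of differences for Egr1 was 0.48 (0.28 to 0.69) and did not pass (limma adjusted p 0.695). Fmod differed by -0.46 (-0.64 to -0.29) at 18 carbons, with a limma adjusted p of 0.0646, and its difference of differences was -0.16 (-0.41 to 0.08). Ccl5, with 0.26 (-0.13 to 0.65), was not shown to differ between the chain lengths.

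**Figure D4:**
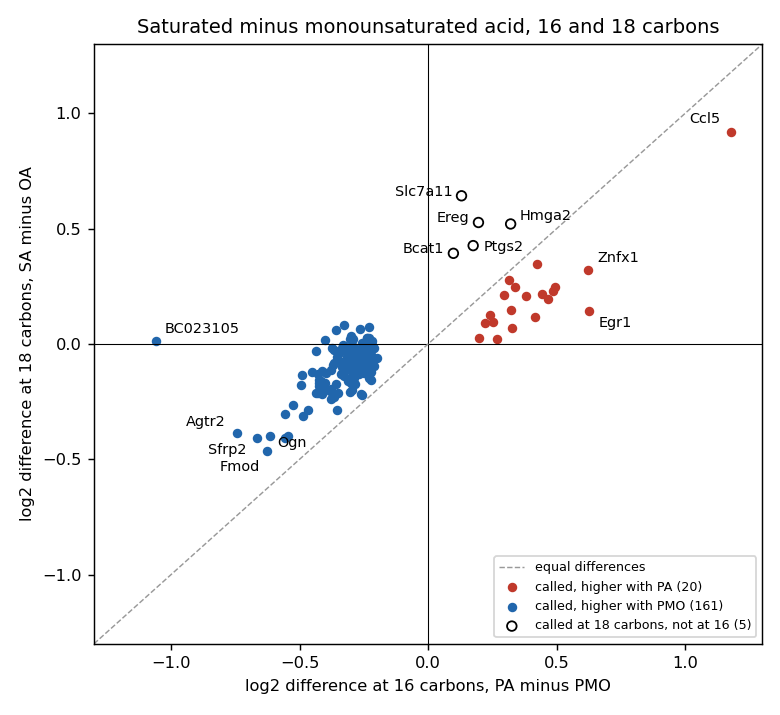
Log2 differences of the genes called at 16 carbons (PA minus PMO, x axis) against their differences at 18 carbons (SA minus OA, y axis), with 5 genes called at 18 carbons and not at 16 as open circles. All 20 red points lie above 0 on the y axis, 146 of the 161 blue points lie below it, and BC023105 lies on the line of no difference at 18 carbons.

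Probe sets outside these genes were tested apart. Of 1881 that the annotation gives several symbols, 1 was called (0.0532%), that of Pgm5 and Tmem252 at -0.53 ± 0.06 (limma adjusted p 0.000944). Of 12457 with no symbol in the annotation, 5 were called higher (0.0401%) and 5 lower (0.0401%) with palmitic acid. Their levels ran from the bottom of the scale to 10.2 with PA. The largest difference among them, 1.13 ± 0.21, was of a dim probe set at 4.40 with PA and 3.27 with PMO.

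**Figure D5:**
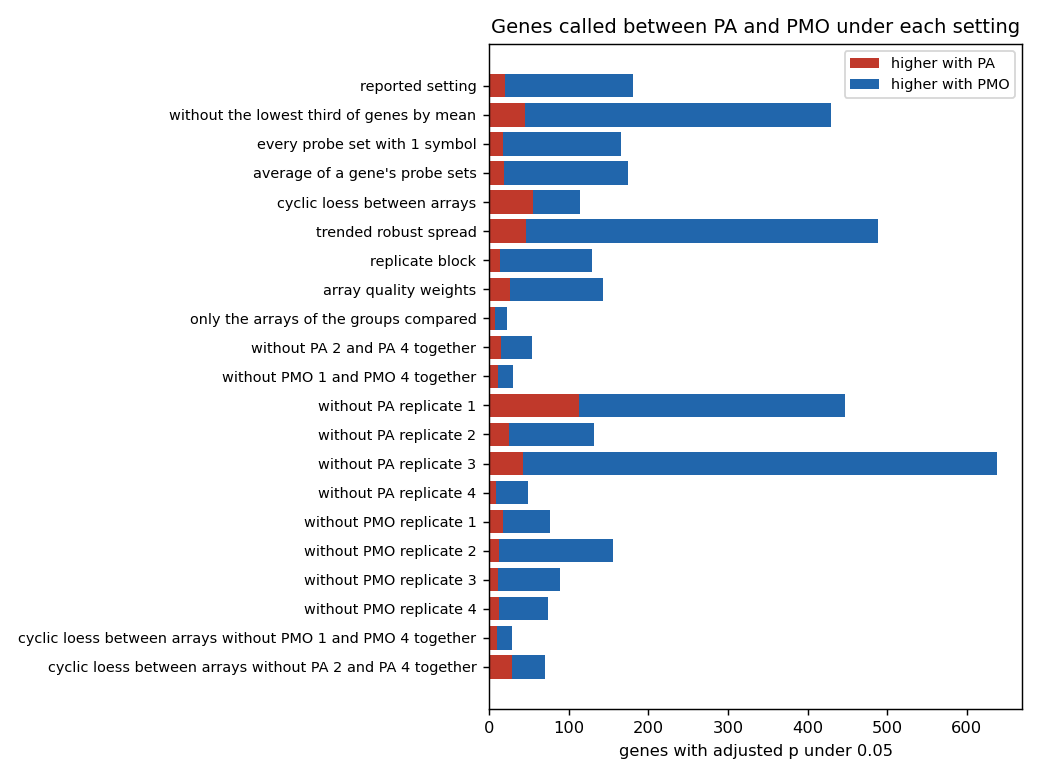
Number of genes called between PA and PMO under each setting, with red for higher and blue for lower with palmitic acid. The total runs from 22 when only the 8 arrays compared enter the fit to 638 without PA 3, and cyclic loess gives 55 higher and 59 lower where the reported setting gives 20 and 161.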

How the data were processed

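The deposited values are log2 expression per probe set of a whole-transcript mouse array, 1 array per culture, normalised and summarised by the authors with RMA (R 2.15.0 and affy 1.34.0 are named in the submitters' processing notes). They were made from 100 ng of RNA with an integrity number above 9, per the labels' protocols. Its 19 columns of 35556 probe sets ran between 1.97 and 13.3. The scan files were not used here, and the file gives neither detection calls nor scan batches. Arrays give no depth, so the number of arrays limits the precision.

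Per the array annotation 21218 probe sets had 1 symbol, 1881 several and 12457 none. Gene identifiers were looked up in RefSeq (21185 found, 33 not, 0 symbols updated). Each of 18820 genes was read through its probe set of highest mean, with no filter on low values. Of these genes 1386 had more than 1 probe set.

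A model with 5 group means was fitted to all 19 arrays (R 4.3.3; two-sided moderated tests of limma 3.58.1 from lmFit and eBayes, with Benjamini-Hochberg adjustment), after a check on simulated data. The members and lists (37 lists, 804 of 881 entries measured) were chosen with earlier results of these data known, so no set test or p-value over a list was made. Named genes are the 10 largest differences per direction among genes called with no overlap between the arrays, up to 4 members of smallest p per list, a panel of 25 genes (24 measured), 5 genes of smallest p in the difference of differences, and, chosen after their values were seen, those the text says so of and Sec61g, Tes, Sema3f and Fkbp11. Hacd4, Ifi30, Ly6e, Adam19 and Plat were also picked after their values were seen and are not counted among the named genes. The same-numbered arrays of the 2 acids were not paired. Alternatives covered the filter, the choice of probe set, the normalisation, the variance model, array weights, the replicate block and each array left out in turn.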

Additional observations from a re-analysis of the deposited data

Results flagged for a closer look

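For BC023105 the difference between the acids was not the same at the 2 chain lengths: PA minus PMO minus (SA minus OA) was -1.07. In 19 of 410 groups of 4 arrays tested over 185 genes, 1 array lay apart from the other 3 by a larger share of the group's range than Dixon's 95% limit allows, where chance gives about 1 in 20 groups. Among the genes with the largest differences these were Agtr2 in the control arrays (0.887, control 3 at 7.70 beside 7.48 to 7.50), Fmod with SA (0.878, SA 2 at 6.61 beside 6.38 to 6.41), Prokr1 in the control arrays (0.902, control 4 at 5.94) and P4ha3 with PMO (0.872, PMO 1 at 7.53 beside 7.46 to 7.47). With PA they were Elovl6 (0.888, PA 2 at 9.39), Abca9 (0.942, PA 2 at 5.30), Thrsp (0.838, PA 1 at 8.18) and Zfp949 (0.853, PA 1 at 6.59). With PMO the lone array was PMO 1 for Gstm1 (0.83), Adm (0.88) and Bak1 (0.947), PMO 2 for Mvd (0.868), Pex19 (0.868) and Ptprc (0.872), PMO 3 for Scd3 (0.832) and Pdpk1 (0.831), and PMO 4 for Acaa2 (0.955), Traf6 (0.996) and Sucnr1 (0.895).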

How the results depend on the processing

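The count of genes called for PA against PMO, 181 as reported, was 166 with every probe set, 174 with averaged probe sets and 143 with array quality weights. It was 430 without the dimmest genes (those in the bottom 1/3 by mean level), 489 with a trended robust spread, 114 after cyclic loess, 22 with only the arrays of the groups compared, 54 without PA 2 and PA 4 and 30 without PMO 1 and PMO 4. Chosen after seeing the data, cyclic loess without PMO 1 and PMO 4 gave 29 and without PA 2 and PA 4 gave 70. Leaving out 1 array gave 49 to 638, arrays of the other groups included, which were also added after seeing the data. For SA against OA the count of 6 was 24 with array quality weights and 0 to 7 with 1 array left out. For the PA-PMO difference against the SA-OA difference the count of 1 was 0 without the dimmest genes (830 at an unadjusted p under 0.05), which removes BC023105 itself, and 1 with any 1 array left out. With the replicate block the 3 counts were 129, 4 and 1. Same-numbered PA and PMO arrays deviated from their group means with correlations of -0.28 to 0.00 over genes, 0 of the 4 PA arrays went best with its own number, and the block changed the call of Ifi27l2a, Snora73a, Cpt1a, Spry1, Casp8, Thbs2, Sema3f and Fkbp11 among the named genes called. Of 50 named genes called, 14 were called under every alternative that could test them and 0 changed sign. Leaving out arrays could not turn the sign where the groups did not overlap. The causes were not tested. The deposited values carry no detection calls, which limits what can be said of dim genes such as BC023105.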
